A study of Mus musculus with 12 samples.

Results

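The 10 genes described here make, use or move nicotinamide adenine dinucleotide (NAD) in the mouse liver: Nampt, Nmnat1, Nmnat3, Nadsyn1, Qprt, Nadk, Nnmt, Slc25a51, Sirt1 and Nnt. They were taken by name, 10 of the 23849 gene symbols in the expression table of the study, and all 10 passed the minimum of a mean of 1 FPKM (fragments per kilobase of transcript, scaled to the mapped fragments of the library) that 9806 symbols reached. The list was drawn up with earlier results of these data in view, so its counts are descriptions, to be read against the share of all genes. Liver RNA came from 12 male mice of C57BL/6J background, 8 weeks old per the series description. Their feed was a high-fat diet (HFD) throughout. Per the study, a daily gavage shortly before lights off began after 4 weeks of HFD and covered the last 2 weeks. It held either vehicle (drinking water) or Policaptil Gel Retard, which the labels call Libramed, a gel-forming fiber product that acts in the gut. Livers were collected at ZT0, when lights turned on, or at ZT12, when they turned off, with 3 biological replicates in each of the 4 groups. No group on a normal diet was analysed here, so every value refers to HFD-fed mice.

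NAD carries electrons between metabolic reactions and is consumed by enzymes such as the sirtuins, so cells rebuild it all the time. The liver makes it from tryptophan (the de novo route, through Qprt), from nicotinic acid (through Nadsyn1) and from nicotinamide, the product left by the consuming enzymes (the salvage route, through Nampt). In liver, Nampt is a textbook target of the circadian clock, and NAD levels are known to cycle over the day.

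Promoters were taken from RefSeq, on GRCm38.p6, for 7 of the 10 members (9 entries, since Nmnat1 and Nadk had more than 1). Nnmt, Slc25a51 and Nnt had no entry. The 250 bases before each start were searched on both strands for the E-box CACGTG, the site of the clock activators, and for TTANNTAA, a short form of the D-box that Dbp and its relatives bind. The promoters of Nampt and Nadsyn1 are shown because both genes rose from ZT0 to ZT12 in either treatment, and that of Sirt1 because it held 2 E-boxes, in capitals. They are written 5′ to 3′ on the strand of the gene, at chr12:32820085-32820334 (plus strand), chr7:143822853-143823102 (minus strand) and chr10:63339051-63339285 (minus strand). The last was shortened by the 15 bases nearest the start, which lie in an annotated exon of Sirt1. The windows of Nampt and Sirt1 lie before the start of 1 transcript but inside the GENCODE span of the gene, in an intron of a transcript that starts further upstream.
Nampt: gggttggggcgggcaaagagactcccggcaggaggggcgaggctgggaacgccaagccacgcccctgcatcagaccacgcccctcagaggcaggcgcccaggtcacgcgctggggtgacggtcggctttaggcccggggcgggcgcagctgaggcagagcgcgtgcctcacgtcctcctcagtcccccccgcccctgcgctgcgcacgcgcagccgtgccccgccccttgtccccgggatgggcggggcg
Nadsyn1: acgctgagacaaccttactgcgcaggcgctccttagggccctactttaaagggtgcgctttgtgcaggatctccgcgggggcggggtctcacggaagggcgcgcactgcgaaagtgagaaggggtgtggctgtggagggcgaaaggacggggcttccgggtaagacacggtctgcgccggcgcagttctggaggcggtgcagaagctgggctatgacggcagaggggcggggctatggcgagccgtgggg
Sirt1: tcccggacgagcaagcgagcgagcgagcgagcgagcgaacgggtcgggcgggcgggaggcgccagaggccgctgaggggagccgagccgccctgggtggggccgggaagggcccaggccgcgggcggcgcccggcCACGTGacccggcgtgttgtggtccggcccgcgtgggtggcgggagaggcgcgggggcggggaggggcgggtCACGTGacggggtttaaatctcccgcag
Neither motif was found in the windows of Nampt and Nadsyn1, which both changed with time. The E-boxes of Sirt1, which did not pass the test in any comparison, lay 115 and 43 bases before the start. Nadk had an E-box 40 bases before the start of 1 entry and a D-box 165 bases before the other. Across 32851 promoters of the same length, 6.02% held the E-box and 5.43% the D-box. No match says only that these letters are not in this window.

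FPKM is per transcript length, so levels were set side by side between genes. The order holds only as far as the table does, since the hepatocyte marker Alb was listed at 0 in every library. Nnmt was the most abundant member, with a mean of 244 FPKM over the 12 mice, followed by Qprt (159 FPKM), whose range overlapped with it, and Nadk (73.6 FPKM). The next 5, Slc25a51 (16.5 FPKM), Nnt (13.8 FPKM), Nadsyn1 (12.7 FPKM), Nampt (12.5 FPKM) and Nmnat1 (10.8 FPKM), overlapped with their neighbours over the 12 mice. Nmnat3 (3.68 FPKM) and Sirt1 (2.50 FPKM) were the lowest and overlapped with each other. The order in the middle depended on the group. Nampt was 8th of the 10 members at ZT0 in both treatments, 4th at ZT12 with vehicle and 5th at ZT12 with Policaptil Gel Retard. Slc25a51 was 7th at ZT0 and 4th at ZT12 under Policaptil Gel Retard. As the plot of FPKM by mouse shows, Nampt and Slc25a51 had the widest spread of group means, 3.48-fold and 3.32-fold from lowest to highest, against 1.09-fold for Qprt.

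**Figure D1:**
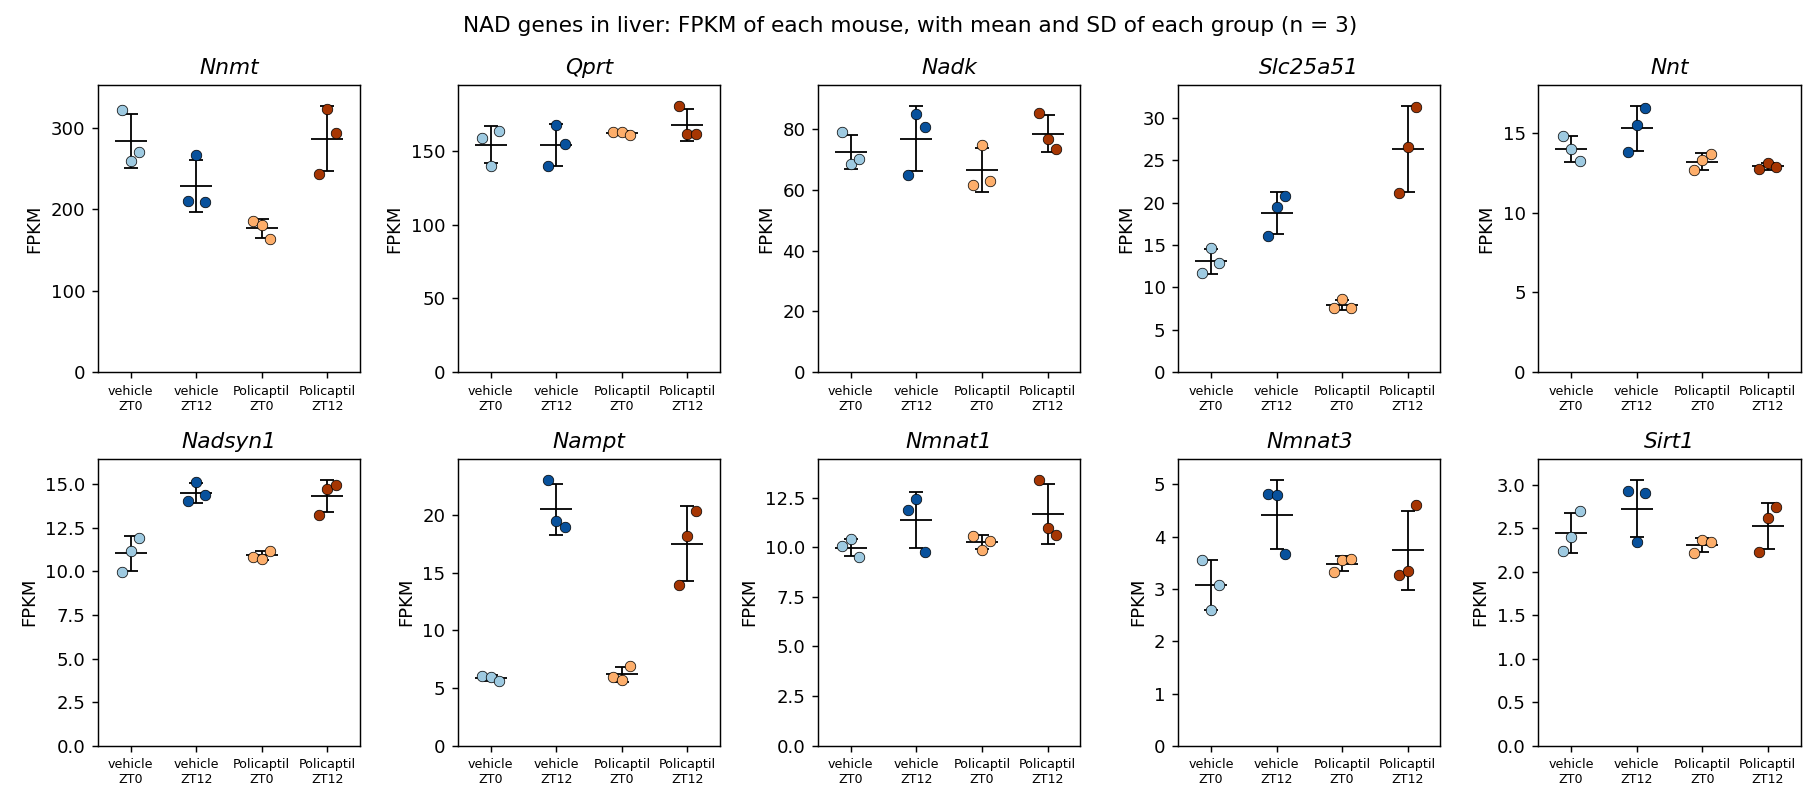
FPKM of the 10 members (vertical axes, each from 0) in every mouse of the 4 groups (horizontal axes), with bars for the mean and SD of each group (n = 3). Nampt is high at ZT12 in both treatments, Slc25a51 separates all 4 groups, from 7.92 to 26.3 FPKM on average, and Nnmt is lowest at ZT0 with Policaptil Gel Retard (176 FPKM).

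The first comparison was ZT12 against ZT0 within each treatment. Nampt (ENSMUSG00000020572.8, chromosome 12, 32819545 to 32853349, plus strand, in GENCODE vM21 on GRCm38, the build mm10) encodes the rate-limiting enzyme of NAD salvage. In the vehicle group it measured 6.07, 6.00 and 5.62 FPKM at ZT0 and 23.04, 19.4 and 19.01 FPKM at ZT12. Under Policaptil Gel Retard Nampt measured 5.99, 5.67 and 6.91 FPKM at ZT0 and 13.9, 18.2 and 20.3 FPKM at ZT12. All 6 mice at ZT12 were above all 6 at ZT0, and the ZT12 mouse with the least Nampt was in the Policaptil Gel Retard group. Mean Nampt was 3.48-fold higher at ZT12 with vehicle (5.89 ± 0.243 against 20.5 ± 2.22 FPKM, SD, n = 3), a log2 fold change on the log2(FPKM + 1) scale of 1.64 (SE 0.10, limma adjusted p = 0.00172), the 4th smallest p of the 9806 genes. Among treated mice it was 2.83-fold higher (6.19 ± 0.644 against 17.5 ± 3.25 FPKM), a log2 fold change of 1.35 (SE 0.14, limma adjusted p = 0.00321). The difference between these rises was -0.28 (95% interval -0.68 to 0.11), which did not pass the test (limma adjusted p = 0.833).

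Nadsyn1 (ENSMUSG00000031090.14, chromosome 7, 143795584 to 143822849, minus strand) amidates the nicotinic acid dinucleotide to NAD, the last step of the de novo and nicotinic acid routes. With vehicle it measured 9.97, 11.2 and 11.9 FPKM at ZT0 and 14.01, 15.1 and 14.4 FPKM at ZT12. Livers of the treated mice gave 10.8, 10.7 and 11.2 FPKM at ZT0 and 13.3, 14.7 and 14.97 FPKM at ZT12. Again no mouse at ZT0 reached the level of a mouse at ZT12. The log2 fold change was 0.37 with vehicle (SE 0.09, limma adjusted p = 0.0467) and 0.36 with Policaptil Gel Retard (SE 0.08, limma adjusted p = 0.0299). The vehicle call was lost whichever of its 6 libraries was left out (limma adjusted p between 0.0726 and 0.165). With Policaptil Gel Retard it was lost when any library other than ZT12 replicate 1 was left out (highest limma adjusted p 0.105), and Cyber-T called it in neither treatment. In the fit over both treatments the rise of 0.36 passed the test (limma adjusted p = 0.000389), and with any 1 library left out it still did (highest adjusted p 0.00157).

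Slc25a51 (ENSMUSG00000045973.18, chromosome 4, 45395923 to 45408766, minus strand) encodes the carrier that brings NAD into mitochondria. In vehicle-treated mice it measured 11.7, 14.7 and 12.8 FPKM at ZT0 and 16.0, 19.5 and 20.7 FPKM at ZT12. In mice given Policaptil Gel Retard it measured 7.58, 8.63 and 7.56 FPKM at ZT0 and 21.1, 26.5 and 31.3 FPKM at ZT12. No 2 of the 4 groups overlapped: Policaptil Gel Retard at ZT0 was lowest, then vehicle at ZT0, vehicle at ZT12 and Policaptil Gel Retard at ZT12. Such a complete separation was seen in 27 of the 9806 genes (0.275%). With Policaptil Gel Retard mean Slc25a51 was 3.32-fold higher at ZT12 than at ZT0, a log2 fold change of 1.60 (SE 0.14, limma adjusted p = 0.00193). With vehicle it was 1.43-fold higher, a log2 fold change of 0.49 that missed the threshold after adjustment (95% interval 0.19 to 0.78, limma adjusted p = 0.0559). That value crossed the threshold in 4 of 15 alternatives: when vehicle ZT12 replicate 1 was left out (limma adjusted p = 0.0485), with a minimum of 5 FPKM (limma adjusted p = 0.0476), in the fit of all 12 libraries (limma adjusted p = 0.0394) and with Cyber-T (adjusted p = 0.0119). A microRNA gene annotated on the same strand, Gm25692, shares 125 bases with its exons, and reads from these bases cannot be assigned to either.

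Nnmt (ENSMUSG00000032271.13, chromosome 9, 48591877 to 48605153, minus strand) methylates nicotinamide, which removes it from salvage and uses S-adenosylmethionine. It measured 322, 259 and 270 FPKM at ZT0 and 210, 266 and 209 FPKM at ZT12 in the vehicle group. Under Policaptil Gel Retard the values were 185, 181 and 163 FPKM at ZT0 and 244, 323 and 293 FPKM at ZT12. Within Policaptil Gel Retard treated mice every ZT12 value was above every ZT0 value, whereas with vehicle the times overlapped and the ZT0 mean was the higher one. The log2 fold change with Policaptil Gel Retard was 0.69 (SE 0.12, limma adjusted p = 0.0140), a ratio of 1.62 between the mean FPKM values (176 ± 11.5 and 287 ± 39.9 FPKM). It missed the threshold with no minimum FPKM (limma adjusted p = 0.0502), without Policaptil Gel Retard ZT0 replicate 3 (limma adjusted p = 0.0507) and without Policaptil Gel Retard ZT12 replicate 3 (limma adjusted p = 0.0518). With vehicle the log2 fold change was -0.31 (95% interval -0.63 to 0.00, limma adjusted p = 0.187).

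The other 6 members did not pass the test after adjustment in either treatment. Nmnat1 and Nmnat3 join the mononucleotide made by Nampt to ATP to give NAD, in the nucleus and in mitochondria respectively. Under vehicle Nmnat1 ranged from 9.51 to 10.4 FPKM at ZT0 and from 9.78 to 12.5 FPKM at ZT12, and under Policaptil Gel Retard its ZT0 range of 9.88 to 10.57 FPKM lay just below its ZT12 range of 10.63 to 13.4 FPKM. Nmnat3 ranged from 2.59 to 3.56 FPKM at ZT0 and from 3.66 to 4.81 FPKM at ZT12 with vehicle, without overlap (log2 fold change 0.41, limma adjusted p = 0.0992). Under the tested product its ranges of 3.32 to 3.58 and 3.26 to 4.61 FPKM overlapped. Qprt, which turns quinolinic acid from tryptophan into a precursor of NAD, ranged from 139.5 to 180.3 FPKM over all 12 mice. The 95% interval of its log2 fold change with time was -0.25 to 0.24 in the vehicle group, and -0.14 to 0.23 in the treated group. Nadk, the cytosolic kinase that makes NADP from NAD, ranged from 61.6 to 85.1 FPKM, with log2 fold changes of 0.08 in vehicle and 0.24 in treated mice (limma adjusted p = 0.743 and 0.179). Sirt1, a deacetylase that consumes NAD and acts on clock proteins, ranged from 2.22 to 2.93 FPKM, and its log2 fold changes of 0.11 and 0.09 did not pass the test (limma adjusted p = 0.539 and 0.558). An antisense gene, Gm16145, overlaps Sirt1 exons by 65 bases on the other strand. Nnt, the inner-membrane enzyme that passes hydride from NADH to NADP, ranged from 12.7 to 16.6 FPKM. C57BL/6J mice are known to carry a deletion in Nnt that leaves no working protein, so its transcript level is no measure of the enzyme, and the annotation lists 2 overlapping Nnt genes.

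With vehicle, 2 of the 10 members rose and 0 fell at an adjusted p under 0.05, where 10.4% of all genes tested were called and 5.62% were called higher. Under Policaptil Gel Retard, 4 rose and 0 fell, where 12.4% of all genes were called and 7% were called higher. Nampt and Nadsyn1 were called higher in both treatments, as were 311 of all genes (3.17%). Over the members the median log2 fold change was 0.14 for vehicle mice, where all genes tested had 0.01. For treated mice it was 0.20, again beside 0.01 for all genes. The times did not overlap for 4 members in vehicle and 5 in treated mice, all higher at ZT12. Of all genes, 33.2% and 34.9% showed no overlap between the times, in either direction. These were Nampt, Nadsyn1, Slc25a51 and Nmnat3 with vehicle, and Nampt, Nadsyn1, Slc25a51, Nnmt and Nmnat1 with Policaptil Gel Retard. In the fit of time over both treatments, 3 members (Nampt, Slc25a51 and Nadsyn1) rose and 0 fell, where 29.7% of all genes were called and 15.9% were called higher. All 10 members had a positive log2 fold change in that fit, with a median of 0.18. Of the 9806 genes tested, 5060 were above 0, with a median of 0.01. The smallest value among the members, 0.02 for Qprt, had a 95% interval of -0.11 to 0.16. The 0.19 of Nnmt joined -0.31 with vehicle and 0.69 with Policaptil Gel Retard. In bulk liver, fewer cells of a type and less RNA per cell cannot be told apart. Endothelial markers summed to 23.3 to 32.8 FPKM at ZT0 and 12.2 to 20.7 FPKM at ZT12 under vehicle. Under Policaptil Gel Retard the sums were 30.1 to 38.2 FPKM at ZT0 and 19.2 to 20.3 FPKM at ZT12. All 4 endothelial markers tested had a negative log2 fold change with time in both treatments, and so did all 4 of the stellate cell. Their part in the rise of Nampt, Nadsyn1, Slc25a51 and Nnmt was not tested. The plot of fold changes gives the intervals of all members.

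**Figure D2:**
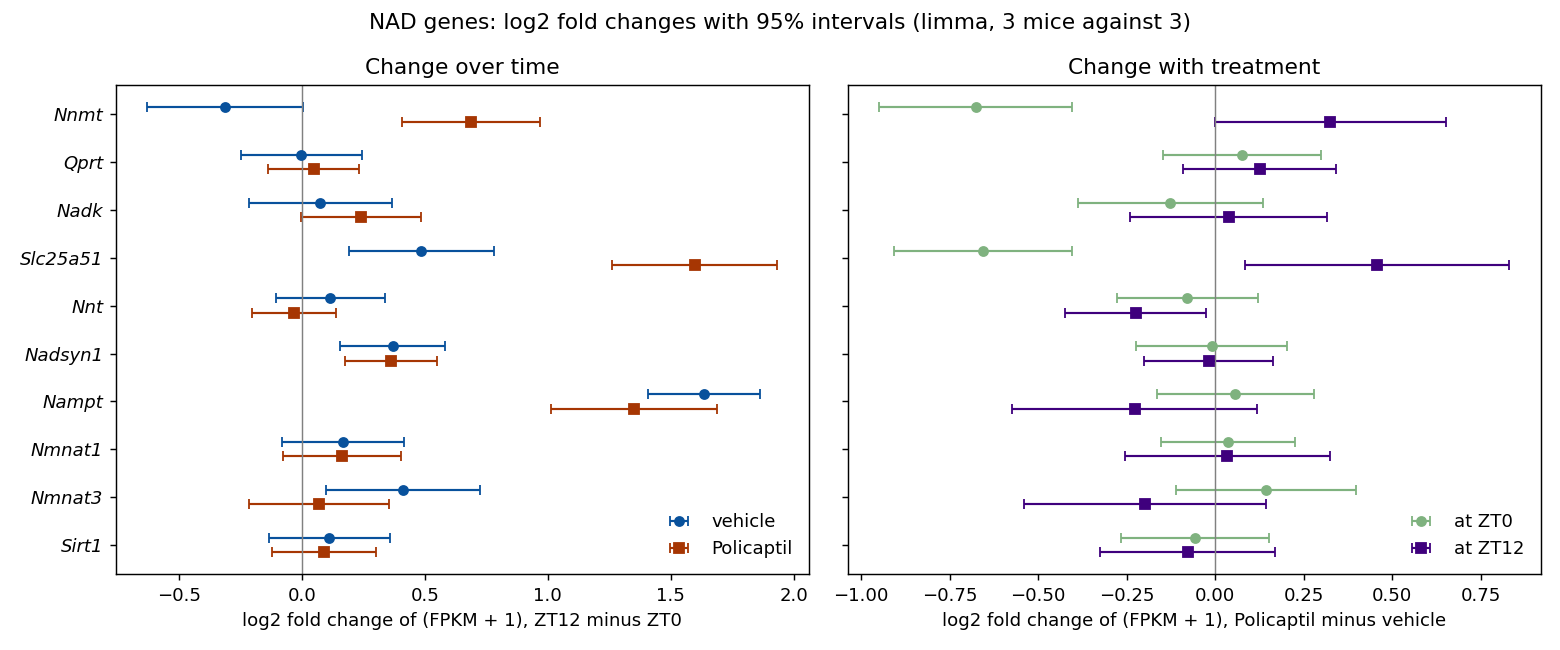
Log2 fold change of FPKM + 1 (horizontal axes) for each member (vertical axis), as point and 95% interval from limma with 3 mice against 3, for ZT12 minus ZT0 in each treatment (left) and Policaptil Gel Retard minus vehicle at each time (right). Nampt lies at 1.64 and 1.35 over time, and Slc25a51 and Nnmt lie below 0 at ZT0 and above 0 at ZT12 for treatment.

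The second comparison was Policaptil Gel Retard against vehicle at each time. At ZT0, Slc25a51 and Nnmt were lower in every mouse given Policaptil Gel Retard than in any mouse given vehicle. Mean Slc25a51 was 7.92 ± 0.611 FPKM against 13.1 ± 1.48 FPKM, a ratio of 0.606 and a log2 fold change of -0.65 (SE 0.11, 95% interval -0.91 to -0.40, limma adjusted p = 0.264). Mean Nnmt was 176 ± 11.5 FPKM against 283 ± 33.4 FPKM, a ratio of 0.622 and a log2 fold change of -0.68 (SE 0.12, 95% interval -0.95 to -0.40, limma adjusted p = 0.264). Complete separation of the treatments at ZT0 was seen for 15.1% of all genes. By unadjusted p these members ranked 14th and 21st of the 9806 genes. No member passed at an adjusted p under 0.05, and neither did any other gene (0%). At an unadjusted limma p under 0.05, 0 members were higher and 2 lower, where 9.23% of all genes passed. Both lower members passed after adjustment with Cyber-T, the regularised test used in the study and written anew here (Cyber-T adjusted p = 0.0156 for Slc25a51 and 0.0238 for Nnmt), a test that called 0.704% of all genes. The other 8 members lay between -0.13 and 0.14 on the log2 scale at ZT0. For Nampt the difference was 0.06, with a 95% interval of -0.17 to 0.28, and for Nadsyn1 it was -0.01, with an interval of -0.22 to 0.20. Its sign for Nadsyn1 turned with the scaling of the libraries.

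At ZT12 the sign of both genes was the opposite. Slc25a51 was higher in every mouse given Policaptil Gel Retard (26.3 ± 5.09 against 18.7 ± 2.45 FPKM, SD, n = 3), a log2 fold change of 0.46 (SE 0.16, 95% interval 0.08 to 0.83, limma adjusted p = 0.729). Nnmt averaged 287 ± 39.9 FPKM against 228 ± 32.4 FPKM, a log2 fold change of 0.33 (95% interval -0.00194 to 0.65, limma adjusted p = 0.729), and its groups overlapped. Nnt was lower in every mouse given Policaptil Gel Retard, at 12.7 to 13.1 FPKM against 13.8 to 16.6 FPKM with vehicle (log2 fold change -0.23, SE 0.08, limma adjusted p = 0.729). The treatments were fully apart at ZT12 for 13.1% of all genes. Mean Nampt was 0.853 of the vehicle level at ZT12, with overlapping groups and a 95% interval of the log2 fold change from -0.57 to 0.12. At an unadjusted p under 0.05, 1 member (Slc25a51) was higher and 1 (Nnt) lower, where 6.74% of all genes passed and 0% passed after adjustment. With Cyber-T, 0 members and 0.235% of all genes passed after adjustment at ZT12. Over both times 0 members passed after adjustment (0.0204% of all genes) and only Nnt, at -0.15, was under an unadjusted limma threshold of 0.05 (95% interval -0.28 to -0.03, adjusted p = 0.418), where 10.1% of all genes were.

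Whether the change over time differed between treatments was tested by the interaction over all 12 mice. For Slc25a51 the rise over time was larger with Policaptil Gel Retard by 1.11 on the log2 scale (95% interval 0.67 to 1.55), and for Nnmt the change differed by 1.00 (95% interval 0.59 to 1.41). Their p-values were the 3rd and 6th smallest of the 9806 genes. Both had a limma adjusted p = 0.337, and 0% of all genes passed. At an unadjusted p under 0.05, 2 members were positive and 0 negative, where 6.63% of all genes passed. The other 8 members had interactions between -0.34 (Nmnat3) and 0.16 (Nadk). The interaction and the 4 comparisons of 2 groups share the same mice. The time change with Policaptil Gel Retard and its treatment difference at ZT0 share the same 3 livers. The plot of 3 members by mouse shows these levels together.

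**Figure D3:**
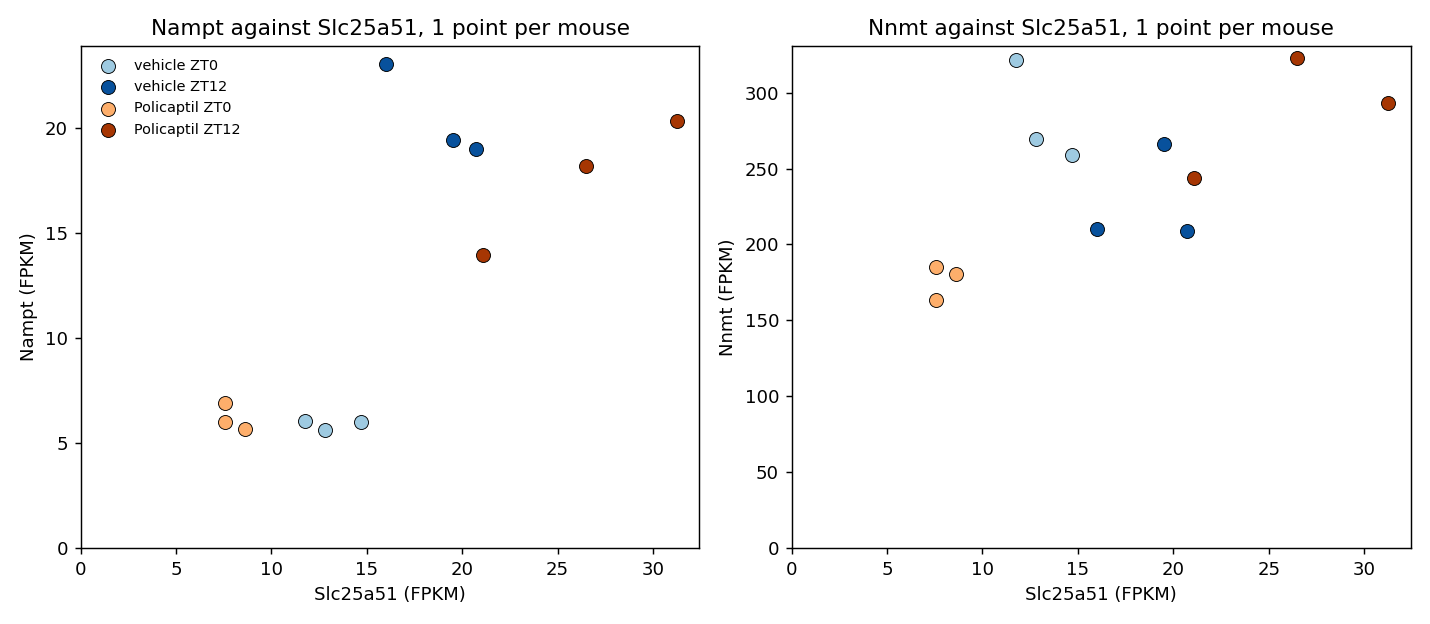
FPKM of Nampt (left, vertical axis) and Nnmt (right, vertical axis) against FPKM of Slc25a51 (horizontal axes), 1 point per mouse, coloured by group. The 4 groups follow each other along Slc25a51, from 7.56 to 31.3 FPKM, while Nampt splits them by time and Nnmt is at 185 FPKM or less in the 3 mice given Policaptil Gel Retard at ZT0.

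Several facts of the series stand beside these values. Relative depth, estimated from the steps of low values and set to 1 in vehicle ZT0 replicate 1, ran from 0.641 (Policaptil Gel Retard ZT12 replicate 2) to 1.31 (Policaptil Gel Retard ZT0 replicate 2), and absolute depth is unknown because no counts were used. Hepatocyte markers Ttr, Apoa1, Cps1, Hnf4a, Ass1 and Pck1 were present in all mice, while Alb was listed at 0 in every library. Their sum, in which Apoa1 was the largest, was higher in treated mice. It was 29763 to 33074 FPKM with vehicle and 34740 to 43089 FPKM with treatment at ZT0. At ZT12 it was 28618 to 32597 FPKM and 32743 to 39512 FPKM. For treatment, 3 of the 6 had a positive log2 fold change at ZT0 and 6 at ZT12, and 0 passed after adjustment. Of the 7 clock genes tested, 4 rose and 3 fell from ZT0 to ZT12 in both treatments after adjustment. At ZT0 the clock output gene Dbp measured 17.9, 6.97 and 1.85 FPKM in vehicle mice and 20.3, 18.2 and 27.2 FPKM in treated mice. Its treatments did not overlap there, which held for 15.1% of all genes. Those of the other clock genes listed, Arntl, Clock, Npas2, Nr1d1, Per2, Per3 and Ciart, overlapped at ZT0. For treatment at ZT0, 4 of the 7 clock genes tested had a positive and 3 a negative log2 fold change, and 0 passed after adjustment. Of the fat markers, Lep was at 0 in all mice and Adipoq and Plin1 did not exceed 0.0492 FPKM. Cfd, also made by fat cells, was at 11.4 to 42.8 FPKM with vehicle at ZT12 and at 2.74 to 11.2 FPKM in the treated mice of that time. Kupffer cell and macrophage markers at ZT0 summed to 20.4 to 25.2 FPKM in vehicle mice, above the 11.5 to 18.8 FPKM of treated mice. The part of these in the treatment differences was not tested.

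The rest of NAD metabolism was followed with a hand-written list of 53 genes, of which 52 were in the table and 46 were tested. With vehicle 6 of them rose and 2 fell after adjustment, where 10.4% of all genes were called. In treated mice 4 rose and 1 fell, where 12.4% of all genes were called. The salvage route held the largest change on the list. Nmrk1, the kinase that turns nicotinamide riboside into the mononucleotide, measured 7.25, 11.2 and 9.63 FPKM at ZT0 and 31.2, 31.7 and 29.2 FPKM at ZT12 with vehicle. Under Policaptil Gel Retard Nmrk1 measured 7.94, 7.38 and 7.86 FPKM at ZT0 and 30.2, 33.2 and 31.6 FPKM at ZT12. Like Nampt, it was higher in all 6 ZT12 mice, with log2 fold changes of 1.63 (SE 0.14, limma adjusted p = 0.00324) and 1.90 (SE 0.08, limma adjusted p = 0.000263). Pnp, a phosphorylase that splits nucleosides including nicotinamide riboside, moved the other way, from 23.1 ± 1.57 to 10.9 ± 0.242 FPKM in vehicle mice and from 20.1 ± 2.02 to 10.98 ± 0.875 FPKM in treated mice (log2 fold changes -1.02 and -0.82, limma adjusted p = 0.00258 and 0.00477). In all, 1 of the 4 salvage and riboside genes tested rose and 1 fell in each treatment.

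In the de novo route, 7 of 8 genes were tested. Afmid, which hydrolyses formylkynurenine, rose in both treatments, from 35.2 ± 2.68 to 78.7 ± 9.12 FPKM in vehicle mice and from 45.9 ± 11.4 to 92.2 ± 1.31 FPKM in treated mice (log2 fold changes 1.13 and 1.02, limma adjusted p = 0.00353 and 0.0107). Kynu, which cleaves kynurenines further down, fell with vehicle from 70.9 ± 4.47 to 44.2 ± 5.09 FPKM (log2 fold change -0.67, limma adjusted p = 0.0141). In treated mice its log2 fold change was -0.36 (limma adjusted p = 0.0520). Qprt, which follows these enzymes, had its intervals around 0, as given above. Among the 6 sirtuins other than Sirt1, 2 rose with vehicle and 0 with Policaptil Gel Retard. Of all genes tested, 10.4% and 12.4% were called, 5.62% and 7% as higher. The mitochondrial deacylases Sirt3 and Sirt5 had log2 fold changes of 0.45 and 0.43 with vehicle (limma adjusted p = 0.0417 and 0.0252) and of 0.33 and 0.18 with Policaptil Gel Retard (limma adjusted p = 0.0503 and 0.258). Of the 12 tested poly(ADP-ribose) polymerases and cyclases, 0 passed after adjustment with vehicle, and Parp10, a mono-ADP-ribosyltransferase, rose with Policaptil Gel Retard (log2 fold change 0.29, limma adjusted p = 0.0430).

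Of 3 genes of nicotinamide clearance, Cyp2e1, a cytochrome P450 that also oxidises nicotinamide, rose with vehicle from 3827 ± 239.7 to 5815 ± 696 FPKM (log2 fold change 0.60, limma adjusted p = 0.02999). In treated mice its log2 fold change of 0.47 did not pass (limma adjusted p = 0.143). Among 9 genes of the shuttles that carry reducing equivalents into mitochondria, the aspartate-glutamate carrier Slc25a13 rose with vehicle (log2 fold change 0.53, limma adjusted p = 0.0178). The oxoglutarate carrier Slc25a11 rose with Policaptil Gel Retard (log2 fold change 0.43, limma adjusted p = 0.0136). None of the 5 genes of NADP kinase, NAD hydrolases and repair passed in either treatment, where 10.4% and 12.4% of all genes were called. For treatment at ZT0, treatment at ZT12 and the interaction, 0 of the 46 genes passed after adjustment. At an unadjusted p under 0.05, 1 was higher and 1 lower at ZT0, where 9.23% of all genes passed, and 3 were higher and 2 lower at ZT12, where 6.74% did. A difference between treatments was therefore not shown for Kynu, Sirt3, Sirt5, Parp10, Cyp2e1, Slc25a13 or Slc25a11, whose calls fell in 1 treatment. The plot of these genes by route shows their changes beside each other.

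**Figure D4:**
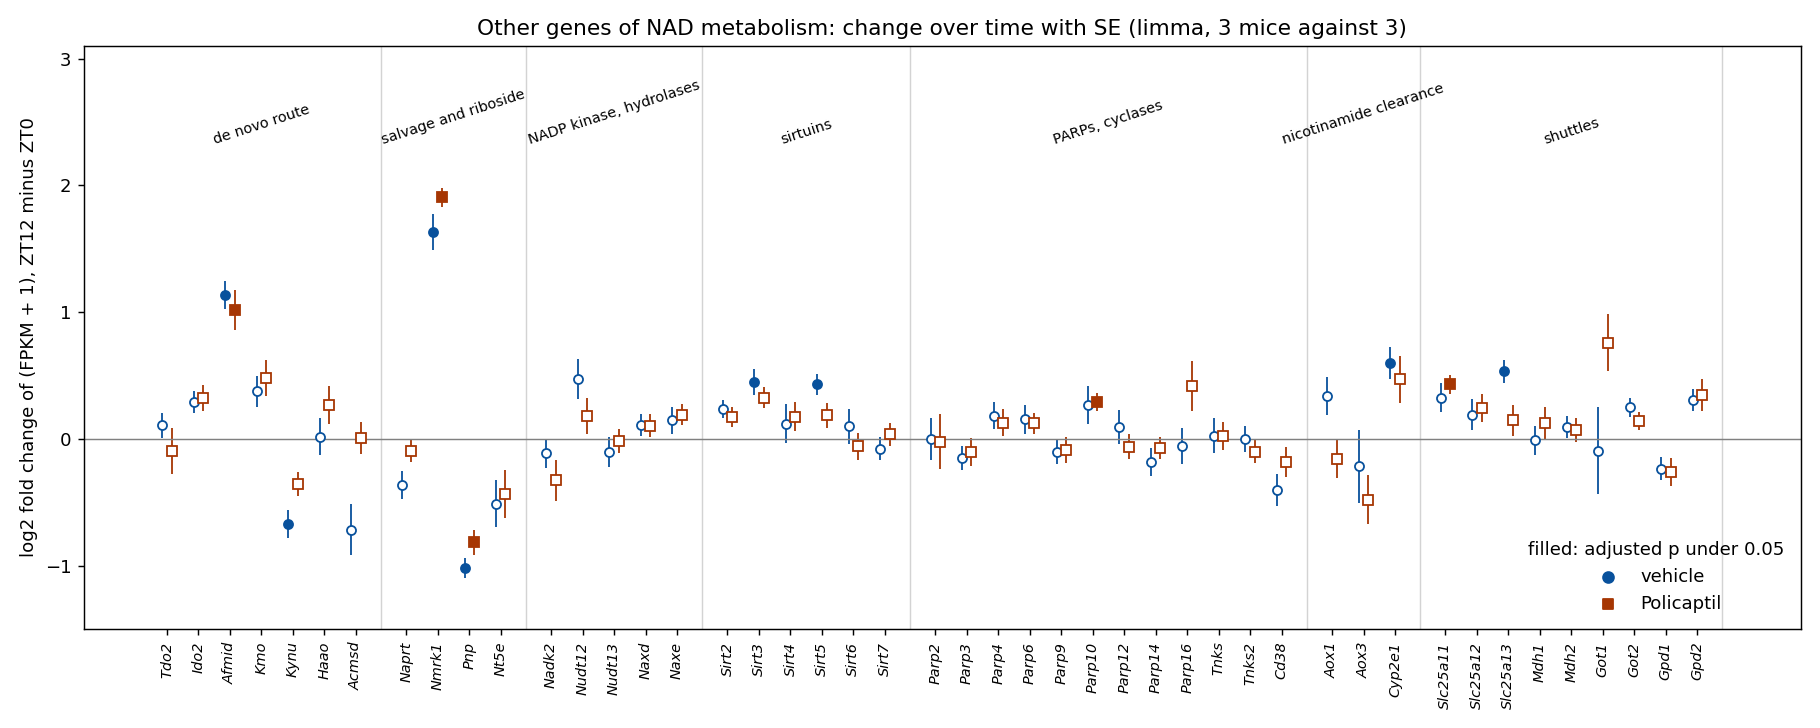
Log2 fold change of FPKM + 1 from ZT0 to ZT12 (vertical axis) with SE from limma, for the 46 other genes of NAD metabolism tested (horizontal axis, grouped by route), in vehicle (circles) and Policaptil Gel Retard (squares), filled where the adjusted p was under 0.05. Nmrk1 (1.63 and 1.90) and Afmid (1.13 and 1.02) lie highest and Pnp (-1.02 and -0.82) lowest.

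The genes whose log2(FPKM + 1) followed the 4 called members most closely over the 12 mice were listed as a description, by Pearson's r. Points share their time and treatment groups. Nampt was followed most closely by Shmt2 (r = 0.990), a mitochondrial serine hydroxymethyltransferase, then by 9030617O03Rik, Slc35b2, Slc6a9 and Map2k3 (r = 0.981 to 0.976). For Nadsyn1 these were Polr2b (r = 0.973), Slc46a3, the joint line of Prn, Prnd and Prnp, Ndfip1 and Pdxk. Slc25a51 was followed by Agpat1 (r = 0.960), Ccrn4l (r = 0.958, also known as nocturnin), 4833439L19Rik, Lrrc28 and Limd1. The closest genes to Nnmt were less close: Hspb8 (r = 0.904), Cstf1, Clp1 and Mon1a (down to r = 0.852).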

How the data were processed

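RNA-seq of liver was available for 12 mice as 1 table, in which the authors deposited FPKM values per gene and library. Per the labels, libraries used the TruSeq RNA v2 kit and the submitters' processing notes name TopHat, Cuffnorm and the builds mm10 and GRCm38, while the study's methods describe a stranded kit and ELAND with uniquely aligned reads on mm10. Which was used for the table is not settled here. No raw counts were used. Of 24138 lines, 289 repeated a symbol, and of these only the most abundant line was used.

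Values were analysed as log2(FPKM + 1), a scale that understates changes of low genes, for the 9806 symbols with a mean of at least 1 FPKM. Tests were two-sided, by moderated linear models (limma 3.58.1, R 4.3.3, variance trend on) fitted to the 6 libraries compared, or to all 12 for the interaction and for effects over both times or treatments, with Benjamini-Hochberg adjustment over all genes tested. Intervals are 95% and come from the same fits. Calls are at an adjusted p under 0.05, and counts at an unadjusted p under 0.05 are given beside the treatment comparisons. Cyber-T was written anew with a window of 101 genes and a prior weight of 10. The fits were tested on simulated data with independent normal noise and shifts larger than most changes described here. Smaller changes were not simulated. Alternatives were a pseudocount of 0.1, no minimum, a minimum of 5 FPKM, other scalings, no trend, a replicate block and leaving out each library. Sequences came from RefSeq tables and coordinates from GENCODE vM21 (Python 3.11.15, pandas 2.3.3).

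The 10 members and all gene lists were chosen with earlier results of these data known. All 10 members are described, with the value of every mouse for those called in at least 1 comparison. Of the other NAD genes, those called are named, and the 5 most similar genes are given for each called member, except that 1 is not reported here. Parp1 and normal-diet livers were not analysed here. Within-group correlations ran from 0.971 to 0.985 and no columns were identical. FPKM alone gives no counting interval. The p-values rest on the spread between 3 livers per group, which limma draws toward the variance trend over all genes tested.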

Additional observations from a re-analysis of the deposited data

How the results depend on the processing

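Over 33 results and 553 alternative values, 510 kept their direction and their side of the threshold. With vehicle, 1 member instead of 2 was called over time with no minimum, without the trend, with quantile normalization and with the replicate block, and 1 to 2 with 1 library left out. The missing member was Nadsyn1 in the first 4. With Policaptil Gel Retard the leave-one-out range was 2 to 4 members. At ZT0, 2 members differed between treatments with Cyber-T, against 0 with limma. Counts at an unadjusted p under 0.05 ranged, with 1 library left out, from 0 to 2 for treatment at ZT12, from 2 to 4 for the interaction, from 0 to 1 for treatment over both times and from 3 to 5 for time over both treatments. Differences near 0 turned sign: Nadsyn1 for treatment at ZT0 was 0.0149 with median-ratio scaling and 0.0102 with quantile normalization, and over both times 0.00524 with median-ratio scaling. With 1 library left out, Nadsyn1 ranged from -0.0752 to 0.0429 for treatment at ZT0, from -0.0500 to 0.0321 at ZT12, from -0.0615 to 0.0565 for the interaction and from -0.0438 to 0.00867 over both times, and Nampt from -0.0136 to 0.110 at ZT0. The cause was not tested. The adjusted p of the interaction with 1 library left out was 0.136 to 0.712 for Slc25a51 and 0.147 to 0.712 for Nnmt.

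Replicate numbers gave no clear pairing of the mice: of 12 same-number correlations, from -0.28 to 0.26, 1 was above 0.1. Different-number correlations ran from -0.26 to 0.33. With only 3 libraries per group, centred on their mean, such correlations cannot settle whether mice were paired. With the replicate block 2.85% of all genes were called with vehicle (10.4% without it) and 7.23% with Policaptil Gel Retard. Without a minimum the shares were 3.02% and 3.74%, over more genes tested. In the fit over all 12 libraries 15.7% were called with vehicle. With 1 library left out the share ran from 2.3% to 8.86% with vehicle and from 5.46% to 10.3% with Policaptil Gel Retard. 3 mice per group limit the precision, and depth is unknown.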

Other observations

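In the fit of time over both treatments, which uses all 12 mice, 13 of the 46 other NAD genes tested rose and 6 fell, where 29.7% of all genes were called and 15.9% were called higher. In the de novo route Kmo, the kynurenine hydroxylase, rose by 0.43 on the log2 scale (SE 0.10, limma adjusted p = 0.00592), and Ido2, a tryptophan dioxygenase, rose by 0.31 (SE 0.06, limma adjusted p = 0.00376). Naprt, which brings nicotinic acid into NAD synthesis, fell by 0.23 (SE 0.08, limma adjusted p = 0.0382), and Nt5e, a surface nucleotidase that acts on NAD breakdown products, fell by 0.47 (SE 0.14, limma adjusted p = 0.0221). Cd38, the NAD glycohydrolase, was low at 1.37 FPKM at ZT0 and 0.934 FPKM at ZT12 (log2 fold change -0.29, limma adjusted p = 0.0302). Sirt2, a largely cytosolic deacetylase, rose by 0.20 (limma adjusted p = 0.00711).

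Among the shuttles, the mitochondrial aminotransferase Got2 (log2 fold change 0.19, limma adjusted p = 0.00752) and the mitochondrial glycerol-3-phosphate dehydrogenase Gpd2 (0.33, limma adjusted p = 0.00547) rose over both treatments. Gpd1, the cytosolic partner of Gpd2, fell by 0.25 (limma adjusted p = 0.0190).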
